A study of Mus musculus with 12 samples.

Results

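Transcripts of 39 genes of glycolysis, glycogen metabolism and the pentose phosphate pathway were followed in brown adipocytes treated with chlorpyrifos (CPF), an organophosphate insecticide. The genes were picked by their symbols from the deposited table of 14775 rows, and a row was kept where its mean was at least 10 normalized counts over the 12 libraries. All 39 symbols were found, in 40 rows, since 2 rows carry the symbol Aldoa. Of these, 39 rows, with 38 symbols, passed the minimum and are called members below. Pygm, the muscle isozyme of glycogen phosphorylase, fell short with a mean of 5.40 (1.94 to 10.4 over the 12 libraries) and was not tested. The minimum left 13531 rows in the whole table.

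The cells were TMCON cells, an immortalized line of murine brown preadipocytes, differentiated with 2 days of induction medium and then 7 days of medium with 20 nM insulin and 1 nM T3. On day 9 they were held for 4 h in a Krebs-Ringer bicarbonate buffer with HEPES and fatty acid-free albumin, and received CPF at 1 pM or, as vehicle, dimethyl sulfoxide, with 6 libraries in each group. A single immortalized line was used, and no source says that the replicates were grown as separate cultures. The p-values therefore rest on the spread of these libraries alone, part or all of which may be technical.

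Glycolysis turns glucose into pyruvate in the cytosol, and lactate dehydrogenase and the monocarboxylate transporters pass part of the carbon on as lactate. Glycogen stores glucose units that phosphorylase releases again, and the pentose phosphate pathway draws on glucose 6-phosphate to make NADPH and ribose 5-phosphate. Brown adipose tissue is known for a high uptake of glucose when it produces heat, and its cytosolic and mitochondrial glycerol-3-phosphate dehydrogenases form a shuttle that carries electrons from the cytosol to the respiratory chain.

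The libraries held 7875502 to 14166615 recovered reads, with medians of 9906195.5 for vehicle and 10672437.5 for CPF. All 10 adipocyte markers were in the table, as were 9 of 10 brown adipocyte markers, Dio2 being the exception, and 12 of 12 preadipocyte or fibroblast markers. Vehicle replicate 2 and CPF replicate 1 stood apart on the first principal component of all genes (29.1% of the variance), with scores of 31.5 and 33.0 against −13.7 to 6.12 in the other 10 libraries. The summed level of the adipocyte markers was 63347 in CPF replicate 1 and 98828 to 110002 in the other CPF libraries, and that of the brown adipocyte markers was 8676 against 12773 to 15804. In vehicle replicate 2 the preadipocyte or fibroblast markers summed to 143800, and in the other 11 libraries to 77851 to 97557. Not all of that list moved together there, since collagens, Fn1 and Pdgfra were highest in vehicle replicate 2 but Dlk1 was lowest (316, against 738 to 1105 in the other 11 libraries), and Thy1 (59.0) and Cd34 (12.8) lay within the range of the others. The brown adipocyte sum was also highest in vehicle replicate 2, at 17532 against 8676 to 16443 in the other 11 libraries. Of that list Ucp1 (5204), Ppargc1a (1137), Elovl3 (34.7), Otop1 (108), Cox8b (365) and Ebf2 (1275) were highest there. For Cox8b and Ebf2 the next library was close (356 and 1273). Cidea (7810), Prdm16 (234) and Cox7a1 (1366) lay within the range of the others. Of 8 macrophage markers 3 were in the table, of 7 endothelial markers 1 (Vwf), and of 12 skeletal muscle markers 3 (Acta1, Actn3 and Mb).

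The start regions of 4 members are shown here, those of the member with the smallest p (Ldhd), of the member whose call depended on which libraries entered (Pygl) and of both members that were highest in 1 library where most others were lowest (Hk2, Slc16a1). They are those of Hk2 (hexokinase 2, chr6:82774405-82774704, minus strand), Slc16a1 (monocarboxylate transporter 1, chr3:104638414-104638713, plus strand), Pygl (liver isozyme of glycogen phosphorylase, chr12:70227634-70227933, minus strand) and Ldhd (D-lactate dehydrogenase, chr8:111630287-111630586, minus strand). Each is the RefSeq window (GRCm38.p6) from 250 bases before to 50 bases after the start of the gene, read 5′ to 3′ on the strand of the gene. Capitals mark ACGTG and GCGTG on either strand (CACGT and CACGC on the opposite one), the core letters at which hypoxia-inducible factors bind.
Hk2: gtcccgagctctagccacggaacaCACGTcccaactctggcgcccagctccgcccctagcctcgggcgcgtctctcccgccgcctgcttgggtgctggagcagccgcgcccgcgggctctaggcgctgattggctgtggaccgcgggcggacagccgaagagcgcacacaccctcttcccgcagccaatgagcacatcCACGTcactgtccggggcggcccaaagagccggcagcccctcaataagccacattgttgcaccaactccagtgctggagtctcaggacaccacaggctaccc
Slc16a1: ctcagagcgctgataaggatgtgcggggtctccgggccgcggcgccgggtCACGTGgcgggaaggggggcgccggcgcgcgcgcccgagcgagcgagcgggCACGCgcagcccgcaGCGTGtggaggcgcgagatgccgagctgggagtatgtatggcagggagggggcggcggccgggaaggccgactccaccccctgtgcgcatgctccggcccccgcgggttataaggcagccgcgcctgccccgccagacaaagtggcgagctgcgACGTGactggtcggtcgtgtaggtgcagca
Pygl: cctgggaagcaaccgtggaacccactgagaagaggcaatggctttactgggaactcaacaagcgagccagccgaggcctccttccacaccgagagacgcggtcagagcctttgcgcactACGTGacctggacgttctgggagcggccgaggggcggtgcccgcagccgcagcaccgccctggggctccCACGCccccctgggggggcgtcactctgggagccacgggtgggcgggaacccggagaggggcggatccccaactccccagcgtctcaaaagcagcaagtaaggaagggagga
Ldhd: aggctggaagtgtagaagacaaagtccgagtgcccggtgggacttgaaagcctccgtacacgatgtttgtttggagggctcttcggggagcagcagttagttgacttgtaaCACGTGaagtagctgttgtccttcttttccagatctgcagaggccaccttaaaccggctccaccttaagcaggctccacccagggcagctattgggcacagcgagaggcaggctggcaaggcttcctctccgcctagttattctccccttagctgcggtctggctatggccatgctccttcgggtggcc

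ACGTG was found 2 times in the Hk2 window, 3 times in that of Slc16a1, 1 time in that of Pygl and 2 times in that of Ldhd, with each strand counted. GCGTG was found 2 times for Slc16a1 and 1 time for Pygl. The Slc16a1 and Ldhd windows also hold CACGTG, an E-box, which contains ACGTG on both strands and so counts as 2 of the matches. A window was matched by symbol and overlap for 37 members. At least 1 match to ACGTG or GCGTG stood in 27 of these 37 windows (73.0%), in 64.2% of the 9637 windows of tested genes and in 43.8% of all 27025 windows. CACGTG was in 6 of the 37 (16.2%), in 10.5% of the windows of tested genes and in 7.24% of all windows. A match is a description of these letters only, and no binding was measured. These shares use the first RefSeq window listed for a gene. With every listed window of a gene counted, 32 of the 37 members (86.5%) and 68.5% of tested genes held ACGTG or GCGTG, while 29.7% of the members and 20.8% of tested genes had several windows. Gpd1 had no window here and is named only. The second Aldoa row matched the same windows as Aldoa and was not counted again.

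Per kb of exon, enzymes of the main line of glycolysis and lactate dehydrogenase had the highest levels, and phosphorylase kinase subunits, minor isozymes and regulators most of the lowest ones. With vehicle, Aldoa (fructose-bisphosphate aldolase A, ENSMUSG00000030695, chr7:126795234-126800751, minus strand) had the highest level at 11014 ± 469.9 normalized counts per kb (SD, n = 6). Tpi1 (triosephosphate isomerase) followed at 6711 ± 345 (SD, n = 6), Pgk1 (phosphoglycerate kinase) at 6548 ± 408 (SD, n = 6) and Pkm (pyruvate kinase) at 6449 ± 150.0 (SD, n = 6). Ldha, Gpi1, Eno1 and Ldhb came next, with means of 4926, 3755, 2888 and 2809.9 per kb, and these 8 held 70.1% of the summed level. The lowest was Ldhd at 44.7 ± 4.91 per kb (SD, n = 6), 246-fold below Aldoa, next to Phka1 and Phkg2, subunits of the kinase that activates phosphorylase, at 46.1 ± 2.50 and 47.2 ± 7.54 (SD, n = 6 each). In this order 31 of 38 neighbours overlapped in their ranges over the 6 vehicle libraries. The steps without overlap lay below Aldoa, Pkm, Ldha, Gpi1, Ldhb, Gpd2 and Aldoc. The order and the fold depend on the length used. Per kb of the longest transcript Aldoa stayed first (20699), but Pkm was number 2 and Pgk1 number 5. On that scale Phka1 (47.2) was the lowest, and Ldhd (58.1) was number 38.

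**Figure D1:**
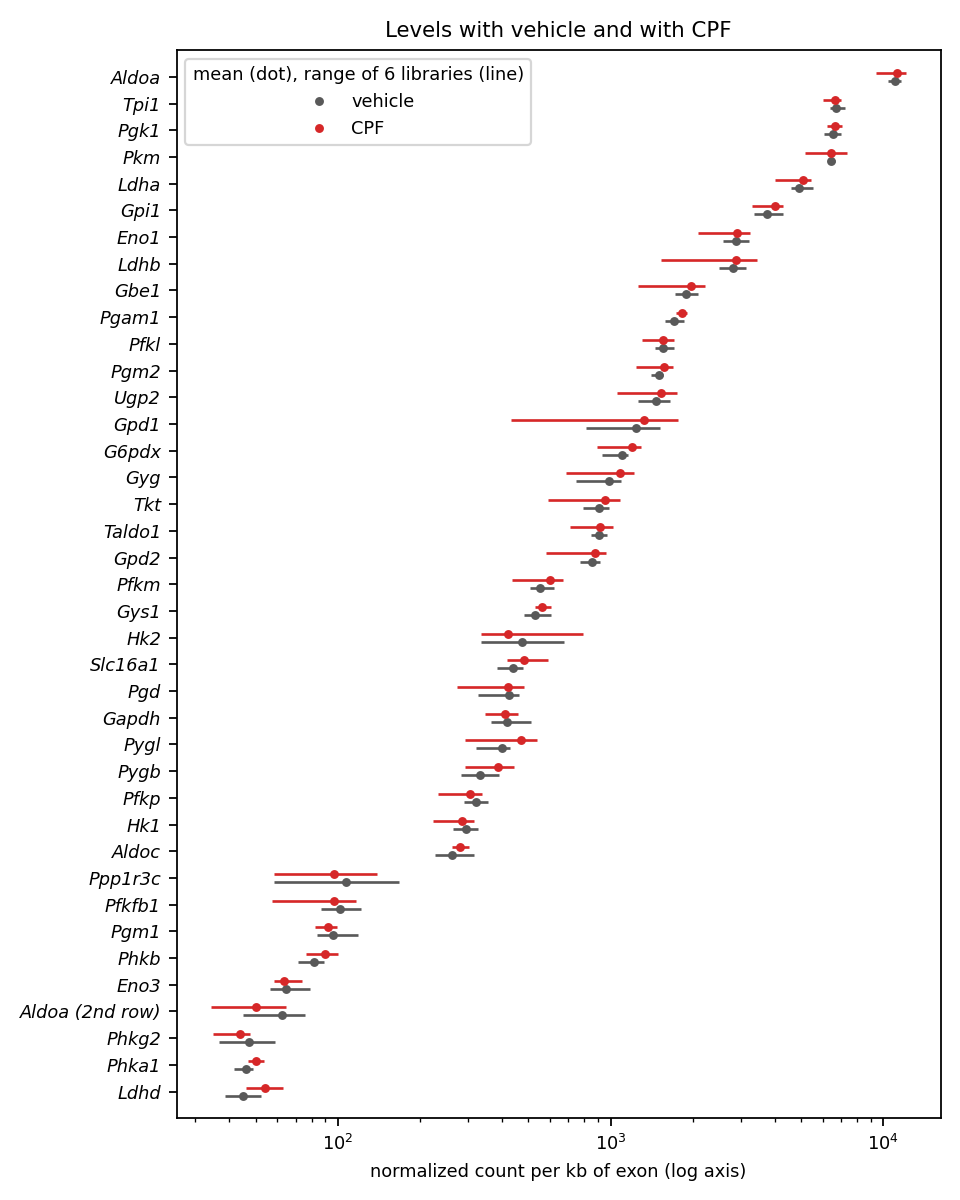
Level of each of the 39 members in normalized counts per kb of exon (log axis) with vehicle (grey) and CPF (red). Dots are means and lines the range of the 6 libraries of a group. Levels run from 44.7 per kb for Ldhd to 11014 per kb for Aldoa with vehicle, and the lines of both groups overlap for every member.

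Genes of glycogen synthesis were led by Gbe1, the branching enzyme, at 1889 ± 146 per kb with vehicle (SD, n = 6). Ugp2, which makes UDP-glucose, was at 1468 ± 163, Gyg (glycogenin, the primer) at 985 ± 124 and Gys1 (glycogen synthase) at 529 ± 50.5 (SD, n = 6 each). Ppp1r3c, a subunit that brings protein phosphatase 1 to glycogen, was at 107 ± 38.7 per kb (SD, n = 6). Among the pentose phosphate genes, G6pdx, which makes the first NADPH of the pathway, was at 1099 ± 84.9 per kb, Tkt (transketolase) at 909 ± 68.9, Taldo1 (transaldolase) at 906 ± 50.4 and Pgd at 423 ± 48.7 (SD, n = 6 each). Tkt and Taldo1 overlapped in their vehicle ranges (795 to 989 against 848 to 969).

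Some levels are uncertain, because the exact sequence of the transcript recurs in other genes and reads of 50 bases from such stretches may not have been counted for the gene. The authors sequenced such reads in pairs, and the shares below do not consider the other read of a pair. The share of 50-base stretches of the principal transcript that recur elsewhere was 82.5% for Gapdh, 72.2% for Eno1, 68.0% for Pgk1, 41.5% for Pgam1, 34.4% for Pkm, 27.0% for Ldhb, 19.3% for Gpi1, 17.1% for Ldha, 13.9% for Aldoa and 12.4% for Taldo1. Gapdh, glyceraldehyde-3-phosphate dehydrogenase, stood at 416 ± 56.2 per kb with vehicle (SD, n = 6), and was number 25 of the 39 in this order. Pkm shares 15.3% of its exon bases with Gm49759 and Pfkm 10.2% with Gm26513 on the same strand. The table's Pgm2 is ENSMUSG00000025791 on chromosome 4, a gene RefSeq calls Pgm1. Its Pgm1 is ENSMUSG00000029171 on chromosome 5, a gene RefSeq calls Pgm2. The symbols of the table are used here.

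With CPF for 4 h, no member passed the test. By limma on log2 of the normalized count plus 1, 0 of 39 members and 0 of 13531 genes (0%) had a Benjamini-Hochberg adjusted p under 0.05. The lowest adjusted p of a member was 0.611, and the lowest of all genes 0.569. At an unadjusted p under 0.05, 2 members were higher with CPF (5.13%, against 2.77% of all genes) and 0 lower (against 4.55% of all genes). By edgeR and DESeq2 on recovered reads the counts of members were the same, 0 at the adjusted and 2 at the unadjusted threshold. Over all genes edgeR called 0 and DESeq2 called 6. The groups overlapped for every member, so that 0 were apart, against 0.126% of all genes with every CPF library higher and 0.34% with every CPF library lower. The log2 fold change was above 0 for 24 of 39 members (61.5%, against 49.6% of all genes), with a median of 0.019 against −0.0015 over all genes, and ran from −0.31 to 0.27.

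The intervals show how far a change could have reached. The unadjusted 95% interval of the log2 fold change lay within 1.25-fold in both directions for 28 of 39 members (71.8%, against 54.9% of all genes). It lay within 1.5-fold for 35 members (89.7%, against 83.7% of all genes). The 4 members with wider intervals were Gpd1, Hk2, Ppp1r3c and the second Aldoa row (ENSMUSG00000114515, chr7:126800790-126809108, minus strand, just upstream of Aldoa), a low row of 34.3 to 75.8 normalized counts per kb.

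**Figure D2:**
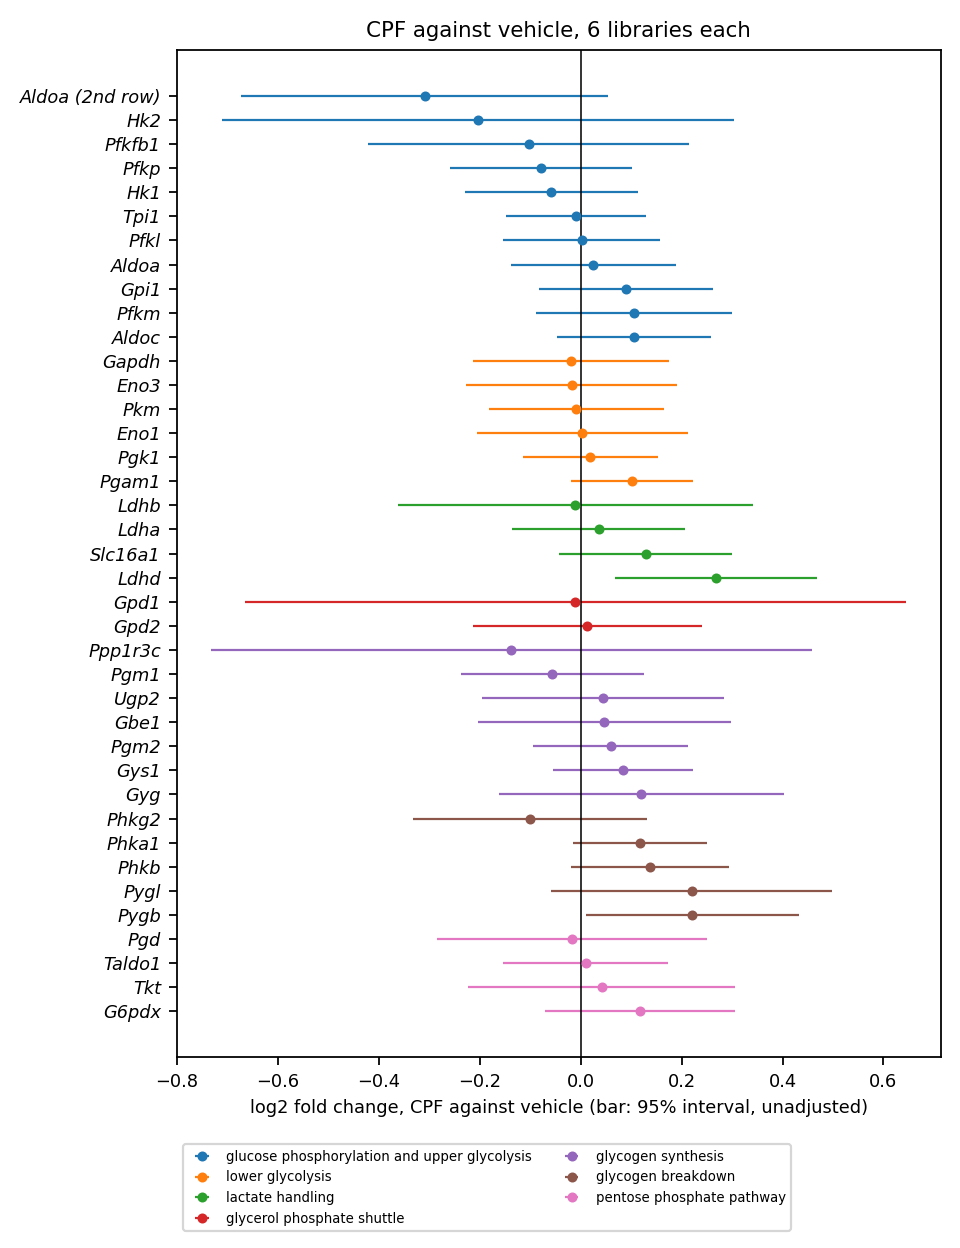
Log2 fold change of each member, CPF against vehicle (6 libraries each), with its unadjusted 95% interval from limma, coloured by step. Points run from −0.31 (second Aldoa row) to 0.27 (Ldhd), and the intervals of Ldhd and Pygb alone leave out 0.

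Lactate handling held the member with the smallest p. Ldhd, the mitochondrial D-lactate dehydrogenase, had a lowest, median and highest level of 205, 235 and 279 normalized counts with vehicle and 245, 278 and 334 with CPF. The groups overlapped, and 6 of 6 CPF libraries lay above the vehicle median. Its log2 fold change was 0.27 (95% interval 0.07 to 0.47), with an unadjusted p of 0.0118 and an adjusted p of 0.611 by limma. Ldha, which encodes the M subunit of L-lactate dehydrogenase, lay at 15235, 16214 and 18284 with vehicle and 13321, 17406 and 17935 with CPF, and its log2 fold change was 0.04 (95% interval −0.14 to 0.21). Ldhb, the H subunit, had a log2 fold change of −0.01 (95% interval −0.36 to 0.34). Slc16a1, monocarboxylate transporter 1, which carries lactate across the membrane, lay at 1699, 1969.7 and 2117 with vehicle and 1839, 2033 and 2613 with CPF, and its log2 fold change was 0.13 (95% interval −0.04 to 0.30). The highest Slc16a1 value of all 12 libraries was that of CPF replicate 1.

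Glycogen breakdown had the highest median of the 7 steps, 0.14 on the log2 scale, with 4 of 5 rows above 0 and 0 called. Pygb, the brain isozyme of phosphorylase, lay at 1363, 1568 and 1874 normalized counts with vehicle and 1404, 1903 and 2135 with CPF. Its groups overlapped, with 5 of 6 CPF libraries above the vehicle median. The log2 fold change was 0.22 (95% interval 0.01 to 0.43), with an unadjusted p of 0.0414 and an adjusted p of 0.677 by limma. Pygl, the liver isozyme and the most abundant phosphorylase per kb, lay at 2213, 2859 and 2954 with vehicle and 2018, 3453 and 3694 with CPF. In 5 CPF libraries Pygl was above all 6 vehicle libraries, and in CPF replicate 1 it was below all 6. Its log2 fold change was 0.22 (95% interval −0.06 to 0.50), with an unadjusted p of 0.113 and an adjusted p of 0.727 by limma. The kinase subunits Phka1, Phkb and Phkg2 had log2 fold changes of 0.12, 0.14 and −0.10.

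Of the 7 genes of glycogen synthesis 5 had a log2 fold change above 0, with a median of 0.046, and the lowest unadjusted p was 0.222, that of Gys1. Pgm2, the main phosphoglucomutase here, which interconverts glucose 1- and 6-phosphate, lay at 4118, 4432 and 4554 normalized counts with vehicle and 3616, 4778 and 4941 with CPF. The groups overlapped, CPF replicate 1 being the lowest of all, and the log2 fold change was 0.06 (95% interval −0.09 to 0.21). Ppp1r3c varied widely in both groups, from 159 to 457 with vehicle and from 159 to 379 with CPF.

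In upper glycolysis 5 of 11 rows had a log2 fold change above 0, with a median of −0.0087. Hk2, the insulin-responsive hexokinase, lay at 2007, 2686 and 4024 normalized counts with vehicle and 1993, 2035 and 4743 with CPF. With vehicle, mean Hk2 was above Hk1 per kb of exon (472 against 296) but below it per kb of the longest transcript (511 against 590). CPF replicate 1 had the highest Hk2 value of all 12 libraries and vehicle replicate 2 the next, while the other 5 CPF libraries stayed between 1993 and 2235. The log2 fold change was −0.20 (95% interval −0.71 to 0.30). Pfkl, the liver isozyme of phosphofructokinase, lay at 9683, 10135 and 11427 with vehicle and 8726, 10478 and 11434 with CPF, with a log2 fold change of 0.0017 (95% interval −0.15 to 0.16). Aldoa lay at 30226, 32329 and 33796 with vehicle and 27447, 33912 and 35319 with CPF, with a log2 fold change of 0.03 (95% interval −0.14 to 0.19). In both genes the CPF range enclosed the vehicle range. The other rows of the step ran from −0.31 to 0.11 on the log2 scale.

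In lower glycolysis 3 of 6 genes had a log2 fold change above 0, with a median of −0.0028. Eno1, the main enolase, lay at 13876, 15560.1 and 17270.5 normalized counts with vehicle and 11275, 16479 and 17418 with CPF, and its log2 fold change was 0.003 (95% interval −0.21 to 0.21). The log2 fold change of Pgk1 was 0.02 (95% interval −0.11 to 0.15) and that of Pkm −0.01 (95% interval −0.18 to 0.17). Pgam1, phosphoglycerate mutase, had the smallest unadjusted p of the step (0.0926, adjusted 0.709, limma) and a log2 fold change of 0.10.

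For the glycerol phosphate shuttle, Gpd1, the cytosolic enzyme, lay at 2397, 3745 and 4508 normalized counts with vehicle and 1274, 4246 and 5236 with CPF. CPF replicate 1 was the lowest of all 12 libraries, and the other 5 CPF libraries lay at 3698 to 5236. The log2 fold change was −0.01 (95% interval −0.67 to 0.64), the widest interval of the members, and its residual SD of 0.57 on the log2 scale was at the 97.3 percentile of all genes. Gpd2, the mitochondrial enzyme, had a log2 fold change of 0.01 (95% interval −0.21 to 0.24). In the pentose phosphate pathway 3 of 4 genes had a log2 fold change above 0, from −0.02 for Pgd to 0.12 for G6pdx, and the lowest unadjusted p was 0.207.

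**Figure D3:**
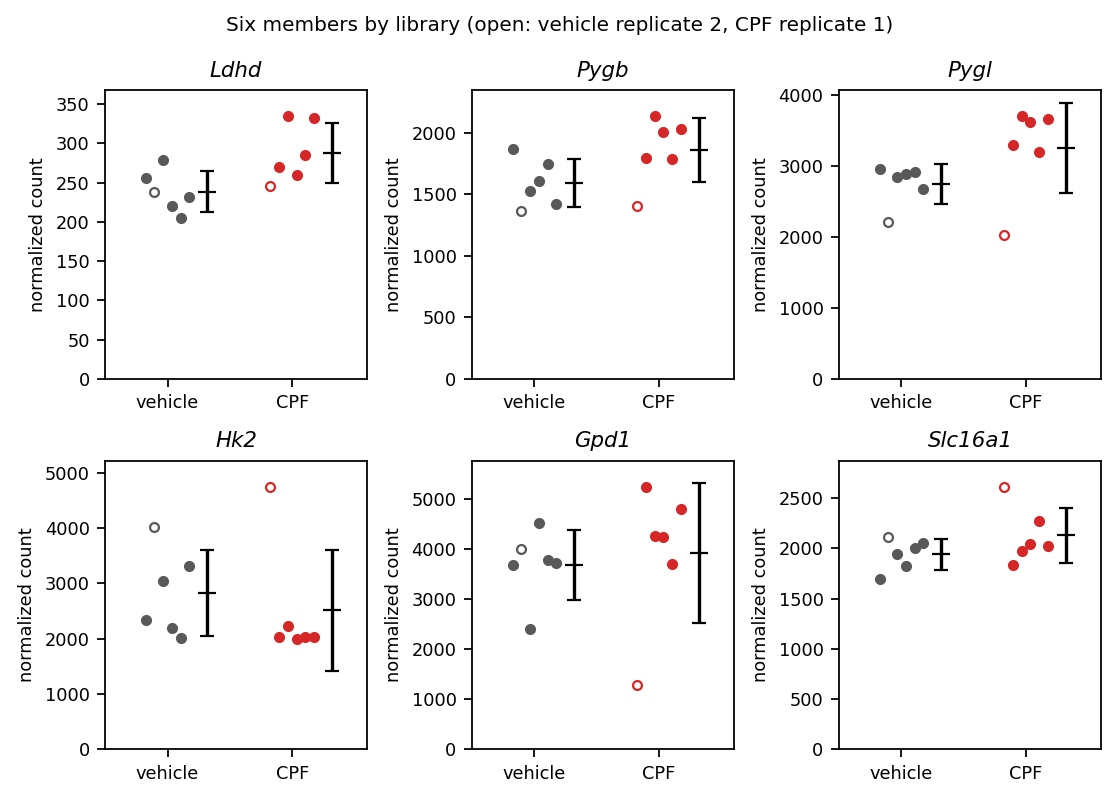
Normalized counts of 6 members in each library, with the mean and SD of the group (bars). Open points are vehicle replicate 2 and CPF replicate 1. CPF replicate 1 is the lowest of 12 for Pygl and Gpd1 (1274) and the highest for Hk2 (4743) and Slc16a1 (2613).

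The balance of isozymes was compared as the share per kb of the main gene among the listed genes of its family, which does not depend on the scaling of a library. Listed genes are the 39 and Pygm, and other genes of a family are not counted in these shares. Across 8 families 0 shares passed an exact two-sided permutation test over all 924 arrangements, the smallest unadjusted p being 0.387 (Pgm2) and every adjusted p 0.996. Aldoa made up 97.7% ± 0.210 (SD, n = 6) with vehicle and 97.5% ± 0.349 (SD, n = 6) with CPF, against Aldoc, and Eno1 97.8% ± 0.389 (SD, n = 6) with vehicle and 97.8% ± 0.379 (SD, n = 6) with CPF, against Eno3. Pgm2 was 94.0% ± 0.578 (SD, n = 6) with vehicle and 94.4% ± 0.921 (SD, n = 6) with CPF, against Pgm1. Eno1b and Eno2, at 1485 ± 126 and 197 ± 34.1 normalized counts per kb with vehicle (SD, n = 6 each), are outside the list. With both counted, Eno1 held 62.3% ± 0.897 with vehicle and 62.3% ± 1.10 with CPF (SD, n = 6 each), and 72.2% of the 50-base stretches of Eno1 recur elsewhere, so that the split among these genes is uncertain. With Pgm2l1 and Pgm5 counted, Pgm2 held 92.3% ± 0.420 with vehicle and 92.8% ± 0.848 with CPF (SD, n = 6 each). The other families were mixed. Hk2 held 60.7% ± 5.24 (SD, n = 6) with vehicle and 57.8% ± 9.98 (SD, n = 6) with CPF, against Hk1, and the CPF libraries other than replicate 1 (78.1%) lay at 51.9% to 55.5%. Per kb of the longest transcript Hk1, not Hk2, had the higher mean with vehicle (590 against 511). Pfkl held 64.0% ± 1.79 (SD, n = 6) with vehicle and 63.4% ± 1.48 (SD, n = 6) with CPF, against Pfkm and Pfkp, and Pygl 54.5% ± 1.83 (SD, n = 6) with vehicle and 54.5% ± 2.36 (SD, n = 6) with CPF, against Pygb and Pygm. Ldha held 63.7% ± 2.52 (SD, n = 6) with vehicle and 64.3% ± 4.43 (SD, n = 6) with CPF, against Ldhb, and was 72.5% in CPF replicate 1. Gpd1 held 58.7% ± 4.11 (SD, n = 6) with vehicle and 58.3% ± 8.06 (SD, n = 6) with CPF, against Gpd2, and was 42.5% in CPF replicate 1. With Gpd1l counted, Gpd1 held 56.2% ± 4.07 with vehicle and 55.8% ± 8.08 with CPF (SD, n = 6 each). In the wider families too, 0 shares passed the exact permutation test, with every adjusted p at 0.996.

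**Figure D4:**
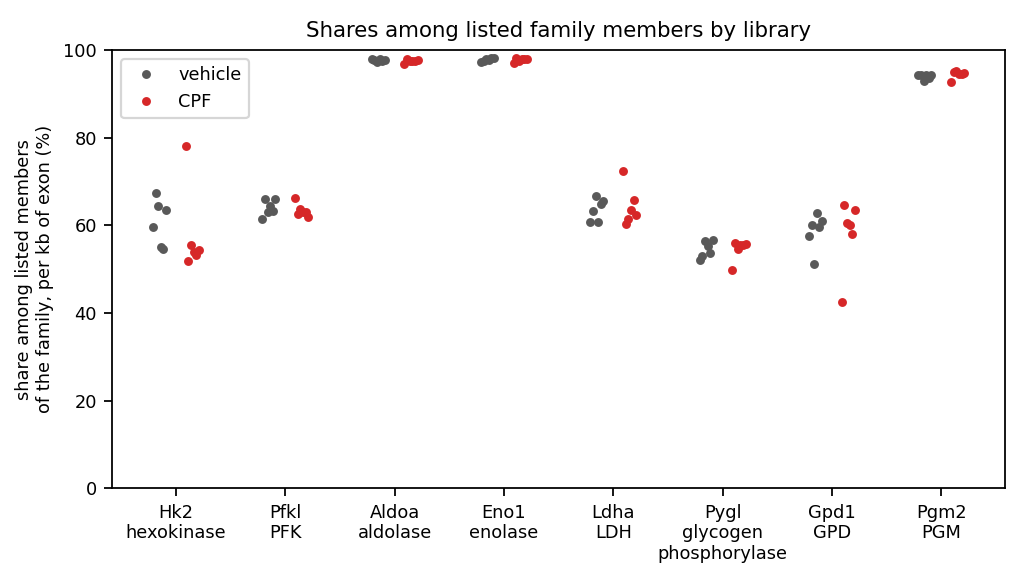
Share of the main gene among the listed genes of its family per kb of exon (%) in each library, vehicle in grey and CPF in red. Aldoa, Eno1 and Pgm2 make up at least 92.6% in every library, Eno1b and Eno2 not being counted, and the points farthest from the rest are CPF replicate 1 for Hk2 (78.1%), Ldha (72.5%) and Gpd1 (42.5%).

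Most members were low in CPF replicate 1. It was the lowest of the 12 libraries for 25 of 39 members (64.1%), against 22.2% of all genes, and the members' median deviation from the gene median was −0.33 on the log2 scale. That median was −0.096 in vehicle replicate 2 and −0.049 to 0.089 in the other 10 libraries. In CPF replicate 1 the deviation was −1.60 for Gpd1, −0.93 for Ldhb, −0.78 for Pfkfb1, −0.77 for Ppp1r3c, −0.68 for Tkt, −0.67 for Gbe1, −0.67 for Pgd and −0.66 for Gyg. Hk2, at 1.10, and Slc16a1, at 0.38, lay the other way, as did Aldoc (0.18), Gapdh (0.15), Pgm1 (0.11) and Pgam1 (0.07). Hk2 was also high in vehicle replicate 2 (0.86), vehicle replicate 6 (0.58) and vehicle replicate 3 (0.46). The adipocyte marker sum, given above, was also lowest in CPF replicate 1, and its part in the members' values was not tested. In these bulk libraries fewer cells of a type and less RNA per cell cannot be told apart. Pgk1, Tpi1, Pgam1 and Phka1 varied least, with residual SDs of 0.076 to 0.082 on the log2 scale.

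**Figure D5:**
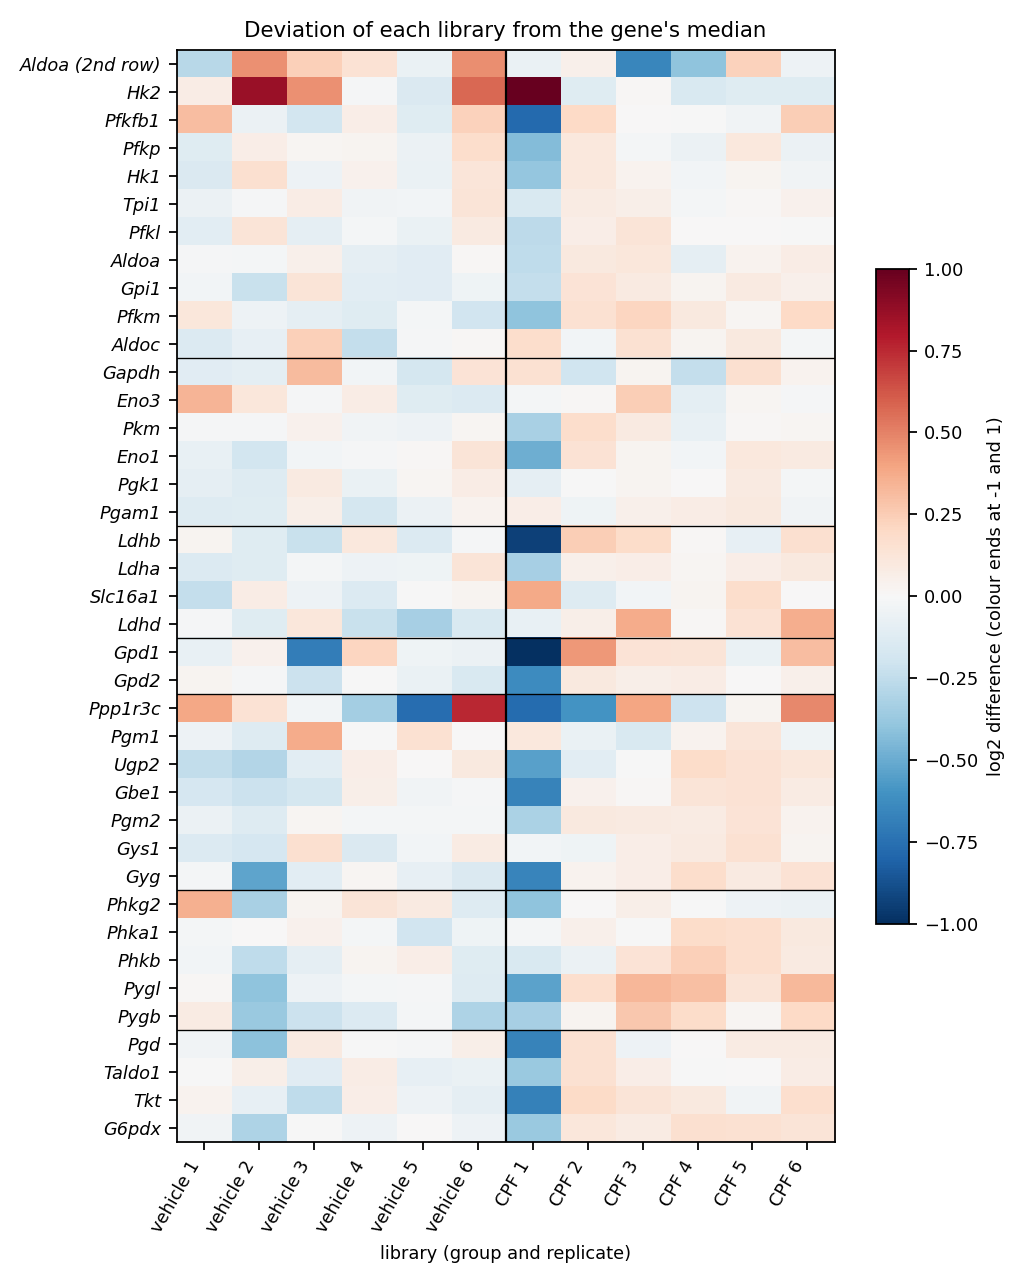
Log2 difference of each library from the median of the gene over 12 libraries, for the 39 members grouped by step, with vehicle left and CPF right of the line. The column of CPF replicate 1 is blue for 33 of 39 members and red for the other 6, most strongly for Hk2 and Slc16a1.

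Leaving out libraries changed the count of members. Without vehicle replicate 2 and CPF replicate 1, a choice made with earlier results of these data known, 1 member, Pygl, passed by limma (2.56%, against 0.399% of all genes). Pygl then had a log2 fold change of 0.29 (unadjusted p = 2.8e-05, adjusted p = 0.0307). The libraries left out were the lowest of their groups for Pygl (2213 in vehicle replicate 2, 2018 in CPF replicate 1). At an unadjusted p under 0.05, 14 members were higher (35.9%, against 7.38% of all genes) and 1 lower (2.56%, against 6.96%). For 25 of 39 members CPF replicate 1 was the lowest of the 12 libraries, so that leaving it out raised their CPF mean. The members' median log2 fold change was then 0.083, against −0.0012 over all genes. It was above 0 for 34 of 39 members, and the share of all genes above 0 was not computed for this set of libraries. The 14 were Pygl, Pygb, Phka1 and Phkb of glycogen breakdown, Gyg, Gbe1 and Pgm2 of glycogen synthesis, G6pdx and Tkt of the pentose phosphate pathway, Pfkm and Gpi1 of upper glycolysis, Ldhd and Ldhb of lactate handling, and Gpd2 of the shuttle. The 1 lower member was Hk2, at −0.29 (unadjusted p = 0.0418, adjusted p = 0.33). Ldhd stood at 0.31 (unadjusted p = 0.00317, adjusted p = 0.127) and G6pdx at 0.15 (unadjusted p = 0.00247, adjusted p = 0.115). Some marker sums moved with these counts. In the 5 CPF libraries that remain, the 10 adipocyte markers summed to 98828 to 110002, against 78562 to 99144 in the 5 vehicle libraries. The 3 of 12 skeletal muscle markers in the table summed to 6697 to 8071 against 5210 to 6706. Nearly all of that sum was Mb (6661 to 8040 against 5187 to 6659), while Acta1 (15.4 to 24.2 against 12.8 to 35.9) and Actn3 (7.28 to 11.6 against 6.01 to 13.6) overlapped. Myh1, Myh2, Myh4, Ckm, Mylpf, Tnnt3, Tnni2, Myod1 and Myog of that list were not in the table, so that the sum stands for Mb alone. The 9 brown adipocyte markers summed to 12773 to 15804 against 12926 to 16443, and the 12 preadipocyte or fibroblast markers to 77851 to 88571 against 82703 to 97557. No gene of these lists in the table was at 0 in any library, and their part in the count of members was not tested.

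Without CPF replicate 1 alone, 0 members passed, against 0.0813% of all genes, and Pygl stood at 0.35 with an adjusted p of 0.0636 by limma. At an unadjusted p under 0.05, 14 members were higher (35.9%, against 8.48% of all genes) and 1 lower (2.56%, against 7.96%). CPF replicate 1 was the lowest of the 12 libraries for 25 of 39 members (64.1%), against 22.2% of all genes. Leaving it out thus raised the CPF mean of more members than of genes at large, and the counts are no separate support. The members' median log2 fold change was 0.096, against 0.00088 over all genes. The adipocyte marker sum had the same ranges there (98828 to 110002 against 78562 to 99144). Mb, nearly all of the skeletal muscle sum, was 6661 to 8040 against 3264 to 6659, while Acta1 and Actn3 overlapped. The part of the adipocyte sum and of Mb was not tested. Within replicates 4 to 6, which had more reads (median 11540349) than replicates 1 to 3 (median 8921374.5), 9 members were higher at an unadjusted p under 0.05 (23.1%, against 7.09% of all genes). In these replicates the adipocyte marker sum was 98828 to 109896 with CPF and 88615 to 96418 with vehicle, and its part was not tested either. Within replicates 1 to 3, which hold both libraries that stand apart, this was 0 members, against 0.54% of all genes. With all 12 libraries kept but weighted in limma, 0 members passed (lowest adjusted p 0.0597). The weights were estimated from the scatter of these same values about the group means. No separate measure of quality entered, so that this is no independent check of the sets with libraries left out. At an unadjusted p under 0.05, 11 members were higher (28.2%, against 8.26% of all genes) and 0 lower. Their median log2 fold change over all 39 was 0.086, against 0.00033 over all genes. It was above 0 for 31 of 39, and the share of all genes above 0 was not computed with weights.

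Of 58 further genes of these pathways, 42 were in the table and 41 were tested. With CPF, 0 passed the test, 17 had a log2 fold change above 0 (41.5%, against 49.6% of all genes) and 24 below, and the median was −0.0062. At an unadjusted p under 0.05, 2 were higher (4.88%, against 2.77% of all genes) and 1 lower (2.44%, against 4.55%). The 2 were Prps1 and Prps2, the synthetases that turn ribose 5-phosphate into the precursor of nucleotides. Prps1 lay at 422, 468 and 528 normalized counts with vehicle and 521, 536 and 564 with CPF, overlapping slightly, with a log2 fold change of 0.21 (95% interval 0.08 to 0.34) and an adjusted p of 0.569 by limma. Prps2 had a log2 fold change of 0.27 (95% interval 0.09 to 0.45) and an adjusted p of 0.599 by limma. Adpgk, the ADP-dependent glucokinase, lay at 294, 325 and 374 with vehicle and 252, 266 and 351 with CPF, a log2 fold change of −0.24 (95% interval −0.42 to −0.05) with an adjusted p of 0.615 by limma. Ppp1r3f, another glycogen-targeting subunit, was the next by p, at 0.32 with an unadjusted p of 0.0671.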

How the data were processed

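The authors sequenced stranded libraries of brown adipocyte RNA (6 vehicle, 6 CPF). Their processing notes name Trimmomatic, FastQC, HISAT2, HTSeq, DESeq2 and GRCm38, and program versions are not stated there. The deposited signal is a normalized count per gene and library. The authors' fold change, percent change and p column, and 12 ratio columns, were not used.

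In every library 100% of the values were whole multiples of 1 step within 0.01 read, and whole reads were recovered (7875502 to 14166615 per library), which set the precision of low genes. Genes with a mean of at least 10 were compared with limma 3.58.1 (R 4.3.3, trend and robust, two-sided, no covariates) on log2(value + 1), with Benjamini-Hochberg adjustment over 13531 genes. A fold change on this scale understates the change of low genes. Alternatives used the recovered reads with edgeR 4.0.16 or DESeq2 1.42.0, and other pseudocounts, filters, scalings, weights and sets of libraries. Tests were first run on simulated counts. Levels are per kb of the union of exons (GENCODE M21, GRCm38), and 14761 of 14775 identifiers were in that annotation. Shares used exact permutation tests.

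The members, the gene lists and the libraries left out were chosen with earlier results of these data known. Values are given for members with an unadjusted p under 0.05, for the most abundant gene of each family per kb of exon and for up to 4 further pathway genes with the smallest p. Slc16a1, and members named for their deviation in 1 library, were added after their values were seen. Promoter windows came from RefSeq.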

Additional observations from a re-analysis of the deposited data

Results flagged for a closer look

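In 23 of 78 sets of 6 values (39 members in each group), the lowest or highest library lay apart from the others by more than 0.625 of the range of its group, which chance gives in about 1 in 20 sets. The sets share libraries and are not independent. CPF replicate 1 accounted for 19 of the 23.

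CPF replicate 1 was the lowest CPF library for 18 members, with normalized counts of 2018 for Pygl (others 3199 to 3694), 2741 for G6pdx (others 3758 to 3969.8), 1453 for Pfkm (others 1942 to 2230.4), 21365 for Gpi1 (others 25792 to 27755), 3119 for Pfkp (others 4056 to 4537) and 139 for Phkg2 (others 177 to 191). It was also low at 1604 for Gyg (others 2590.0 to 2867), 3616 for Pgm2 (others 4612 to 4941), 1905 for Hk1 (others 2442 to 2691), 230 for Pfkfb1 (others 384 to 468), 13321 for Ldha (others 16928 to 17935) and 6756 for Gbe1 (others 10817 to 11849). The remaining values were 4352 for Tkt (others 6807 to 7936), 1766 for Pgd (others 2699.7 to 3116), 1545 for Taldo1 (others 1987 to 2217), 3809 for Gpd2 (others 5898 to 6308), 2399 for Ldhb (others 4331 to 5424) and 11275 for Eno1 (others 15517 to 17418). For Hk2 it was the highest, at 4743 (others 1993 to 2235).

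Vehicle replicate 2 was the lowest vehicle library at 2864 for G6pdx (others 3426 to 3560.3), 1753 for Gyg (others 2287 to 2562) and 2110.2 for Pgd (others 2743 to 2978). CPF replicate 3 was the highest CPF library for Eno3, the muscle enolase, at 128 (others 101 to 109).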

How the results depend on the processing

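The count of 0 called members and the median were the same in direction with pseudocounts of 0.1 and 10, no filter, a minimum mean of 50, TMM factors, edgeR, DESeq2, library weights, a term for replicate set (1 to 3 or 4 to 6) and each library left out, except within replicates 1 to 3, where the median was −0.0086. With each library left out it was 0.0021 to 0.096, the latter without CPF replicate 1. The count of members rose to 1 without vehicle replicate 2 and CPF replicate 1, where Pygl reached 0.29. Of all genes, 6 were called by DESeq2, 22 with library weights, 22 within replicates 4 to 6, 54 without those 2 libraries, and 0 to 11 with 1 library left out, the 11 without CPF replicate 1. The vehicle level of Aldoa was 20699 per kb of its longest transcript, a scale chosen after seeing the data. On that scale the order of the members changed in part, with Phka1 and not Ldhd the lowest.

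Whether the replicate numbers pair the samples was not settled. Same-numbered libraries deviated together with r of −0.21 to 0.26, 4 of 6 over 0.1, and 1 of 6 vehicle libraries correlated best with its own number. Between vehicle and CPF libraries of different number, r ran from −0.30 to 0.28, and among replicates 4 to 6 of both groups from 0.046 to 0.264. CPF replicate 1 and vehicle replicate 2, which stood apart, enter these values, so that they cannot decide on pairing. With the replicate number as a block, 0 members and 0 genes were called, the median was 0.019 and 1 member (Ldhd) had an unadjusted p under 0.05, and paired shares passed in 0 of 8 families.

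Log2 fold changes of members that were not called changed sign, and the cause was not tested. By edgeR, this held for Ldhb (0.032) and Gpd1 (0.088). By DESeq2, this held for Ldhb (0.032) and Gpd1 (0.088). With library weights, this held for Ppp1r3c (0.037), Eno3 (0.0017), Pgd (0.040), Tpi1 (0.011), Pkm (0.036), Ldhb (0.086) and Gpd1 (0.16). Within replicates 1 to 3, this held for Pfkm (−0.0015), Ugp2 (−0.0028), Gbe1 (−0.019), Tkt (−0.021), Aldoa (−0.019), Taldo1 (−0.030), Gpd2 (−0.091) and Eno1 (−0.0086). Within replicates 4 to 6, this held for Pfkfb1 (0.0074), Ppp1r3c (0.22), Gapdh (0.0057), Eno3 (0.031), Pgd (0.037), Pkm (0.0081), Ldhb (0.044), Gpd1 (0.082) and Pfkl (−0.00025). Without vehicle replicate 2 and CPF replicate 1, this held for Pfkp (0.0060), Hk1 (0.041), Pfkfb1 (0.021), Ppp1r3c (0.018), Eno3 (0.0051), Pgd (0.031), Tpi1 (0.018), Pkm (0.052), Ldhb (0.15) and Gpd1 (0.32). In that setting Pgm1 stood at −0.115, Gapdh at −0.072, Gpd2 at 0.139 and Pfkl at 0.080, and without CPF replicate 5 Pfkp stood at −0.111.

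With each library left out, the log2 fold changes that crossed 0 ranged over −0.030 to 0.095 (Eno1), −0.062 to 0.042 (Eno3), −0.055 to 0.044 (Gapdh), −0.13 to 0.29 (Gpd1), −0.018 to 0.13 (Gpd2), −0.089 to 0.011 (Hk1), −0.073 to 0.16 (Ldhb), −0.16 to 0.040 (Pfkfb1), −0.026 to 0.052 (Pfkl), −0.089 to 0.10 (Pgd), −0.0033 to 0.040 (Pgk1), −0.093 to 0.0061 (Pgm1), −0.048 to 0.053 (Pkm), −0.30 to 0.0076 (Ppp1r3c), −0.023 to 0.081 (Taldo1), −0.024 to 0.022 (Tpi1). Differences in shares (CPF minus vehicle, percentage points) ranged over −0.0771 to 0.168 (Eno1), −1.99 to 2.68 (Gpd1), −0.994 to 1.46 (Ldha), −0.455 to 0.955 (Pygl). Their sign also changed from plain normalized counts for Pfkl (0.374) and Pygl (−0.00805), per kb of the longest transcript for Pygl (−0.00443), without vehicle replicate 2 and CPF replicate 1 for Aldoa (0.00603), Ldha (−1.06) and Gpd1 (2.97), within replicates 1 to 3 for Pfkl (0.677) and Pygl (−0.358), within replicates 4 to 6 for Eno1 (−0.0123), and with Eno1b and Eno2 counted, a choice made after seeing the data, for Eno1 (−0.0791).

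Depth limits the low members most, such as the second Aldoa row.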
